A study of Mus musculus with 10 samples.

Results

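Fatty acid oxidation is the route by which cells burn long-chain fatty acids. The acids are taken up, activated to acyl-CoA, carried into the mitochondrion by the carnitine shuttle and shortened there in repeated rounds of dehydrogenation, hydration, a further dehydrogenation and thiolysis. Its genes are targets of the PPARs, nuclear receptors that bind fatty acids and act with a retinoid X receptor partner at paired AGGTCA-like sites. In the lung, alveolar type 2 cells handle much lipid for surfactant, and alveolar macrophages, which need PPAR gamma, break surfactant down.

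The genes described here are 36 genes of this pathway, chosen by symbol, of which 33 had a probe set carrying that symbol alone on the array. Where a gene had several such probe sets, the one with the highest mean over the 10 arrays stood for it. All 33 passed the filter on dim probe sets, and they are 33 of 11333 genes tested. Ucp2 and Acsl1 had no probe set with that single symbol and were not analysed here. The probe set that carries the symbol of Cpt1b also carries those of Chkb and Gm44502; it averaged 2.08 in controls, below the filter value of 4.20, and names none of them.

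The lungs came from 10 female C57BL/6 mice, an inbred laboratory strain with no genetic modification, whose exposure began at 8 weeks of age. In the arsenic group, 5 mice drank water with arsenic at 50 ppm for 12 weeks, and 5 control mice drank distilled deionized water over the same time. The series names the compound as arsenate and the sample records as arsenite. Each animal gave 1 Affymetrix Mouse430_2 array of whole-lung RNA, so that fewer cells of a type and less RNA per cell cannot be told apart. All arsenic titles carry the number 20 and all control titles the number 4, with no stated meaning; if it marks a cage or batch, this cannot be told apart from the exposure. All values are log2 units, and the difference is the arsenic mean minus the control mean with the standard error (SE) of a limma fit over all genes. The 13 measured markers of alveolar type 2 cells averaged between 13.86 and 14.11 on every array.

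No member of the pathway passed an adjusted p of 0.05 between arsenic and control lungs, where 0.476% of all genes did (43 higher and 11 lower, or 43 and 5 after median centring of the arrays). The nearest were Mlycd (limma adjusted p = 0.0635) and Angptl4 (limma adjusted p = 0.0888), and these were the only members whose 5 arsenic values all lay above the 5 control values, which held for 2.82% of all genes. At an unadjusted limma p of 0.05, 6 of the 33 members were higher with arsenic, against 10.6% of all genes, and 1 was lower, against 5.13%. The differences of the 33 members ran from -0.28 to 1.33 with a median of 0.11, and 24 were positive; over all genes tested the median was 0.057 and 63.2% were positive. With no filter on dim probe sets those values for all genes were -0.010 and 45.4%, and those of the members stayed as they were. Without control replicate 3 the median of the members was 0.049 and that of all genes 0.043. After median centring of the arrays, all genes had a median of 0.12 with 73.9% positive, and the members a median of 0.17 with 31 of 33 positive. In the plot of differences by role, the largest differences are those of Angptl4, at 1.33, and Pdk4, at 0.75 with overlapping groups. Ucp3, the other measured gene of their role, had 0.05.

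**Figure D1:**
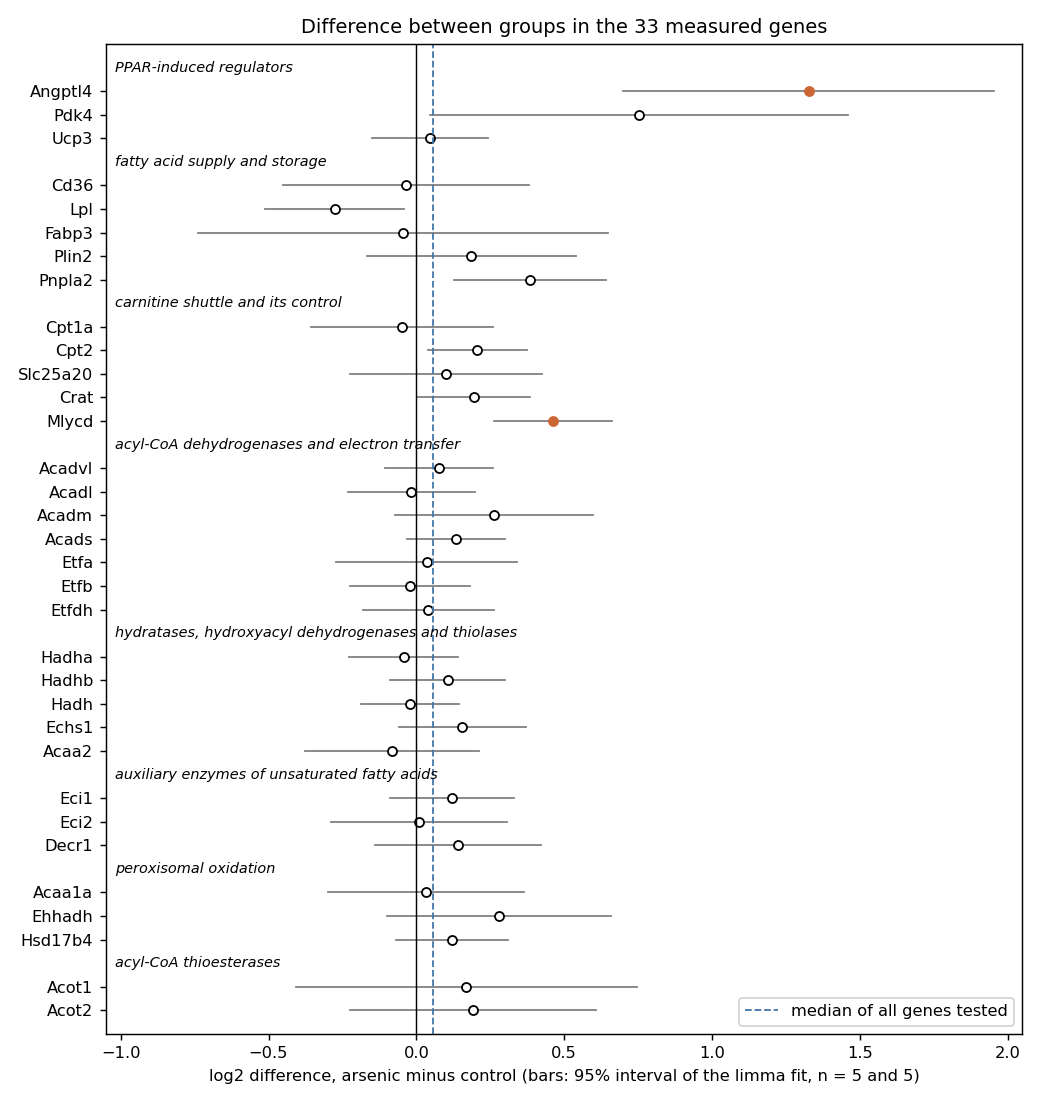
Difference between the group means of each of the 33 measured genes on the log2 scale (x axis), grouped by role (y axis), with the 95% interval of the limma fit as bars (n = 5 arsenic and 5 control animals) and the median of all genes tested as a dashed line. The filled points, Angptl4 at 1.33 and Mlycd at 0.46, are the 2 genes whose groups did not overlap.

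The sequence that PPARs bind was looked for in RefSeq promoters, because the genes are grouped here by that receptor. The table used (build GRCm38.p6) held a window for 27 of the 33 members and none for Acaa2, Angptl4, Crat, Decr1, Hsd17b4 and Lpl. In the 250 bases before each start, 2 copies of AGGTCA in direct repeat with 1 free base between them, on either strand and with up to 2 mismatches, occurred in 5 of the 27 windows (18.5%) and in 3.24% of all 32851 windows. A single exact AGGTCA on either strand, which can be part of such a repeat, occurred in 7 of the 27 (25.9%) and in 14.0% of all. The 5 stretches are shown 5′ to 3′ on the strand of the gene, with the match in capitals and the flanking bases in lower case. They lie at chr4:86670262-86670294 (Plin2, minus strand), chr5:17835937-17835969 (Cd36, minus), chr7:100472930-100472962 (Ucp3, plus), chr7:140116482-140116514 (Echs1, minus) and chr9:55512298-55512330 (Etfa, minus), each with 2 mismatches.
Plin2: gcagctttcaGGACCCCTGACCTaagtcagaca
Cd36: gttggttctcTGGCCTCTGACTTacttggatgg
Ucp3: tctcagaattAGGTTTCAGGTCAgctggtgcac
Echs1: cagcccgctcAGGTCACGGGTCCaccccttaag
Etfa: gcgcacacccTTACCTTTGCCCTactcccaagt

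The matches of Plin2, Cd36 and Etfa read on the strand opposite to the gene, and those of Ucp3 and Echs1 on the strand of the gene. None of these 5 genes was among the 8 members with the smallest p in the comparison of the groups. However, Angptl4, Lpl and Crat, which were among those 8, had no window and so could not show a match. Their differences were 0.19 for Plin2, -0.04 for Cd36, 0.05 for Ucp3, 0.16 for Echs1 and 0.03 for Etfa. A match is only a run of letters in this window and was not tested as a site.

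Angptl4 and Pdk4 are widely used readouts of PPAR activity, and both are also induced by fasting signals and glucocorticoids. Angptl4 encodes a secreted inhibitor of lipoprotein lipase. Its control values were 9.46, 9.99, 8.496, 9.69 and 10.37 in replicates 1 to 5, and with arsenic the values were 10.80, 10.94, 10.72, 11.10 and 11.09. The highest control, replicate 5, stayed below the lowest arsenic animal, replicate 3, and control replicate 3 was the lowest animal. The means were 9.60 ± 0.71 in controls and 10.93 ± 0.17 with arsenic (SD, n = 5 each), a difference of 1.33 (SE 0.28) or 2.51-fold, which did not pass over all genes (limma adjusted p = 0.0888). Over 21 alternative settings its adjusted p ran from 0.0589 to 0.230 and its difference from 1.05 to 1.52, the ends being the fits that left out control replicate 3 and control replicate 5. A second probe set of Angptl4 lay below the filter and differed by -0.02.

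Pdk4 encodes the pyruvate dehydrogenase kinase that shuts off glucose oxidation when fatty acids are burnt. In controls it was at 8.60, 8.77, 8.27, 9.62 and 9.95 in replicates 1 to 5, and with arsenic at 9.75, 9.47, 10.09, 10.31 and 9.35. The groups overlapped: control replicates 4 and 5 lay within the range of the arsenic group, and the other 3 controls below it. The difference was 0.75 (SE 0.32, limma adjusted p = 0.292), with a 95% interval from 0.05 to 1.46. Ucp3, a mitochondrial carrier of muscle and brown fat, averaged 4.58 ± 0.02 in controls and 4.62 ± 0.18 with arsenic, close to the filter value, so little can be read from it. The panels of values per animal show these genes beside the other members with the smallest p.

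**Figure D2:**
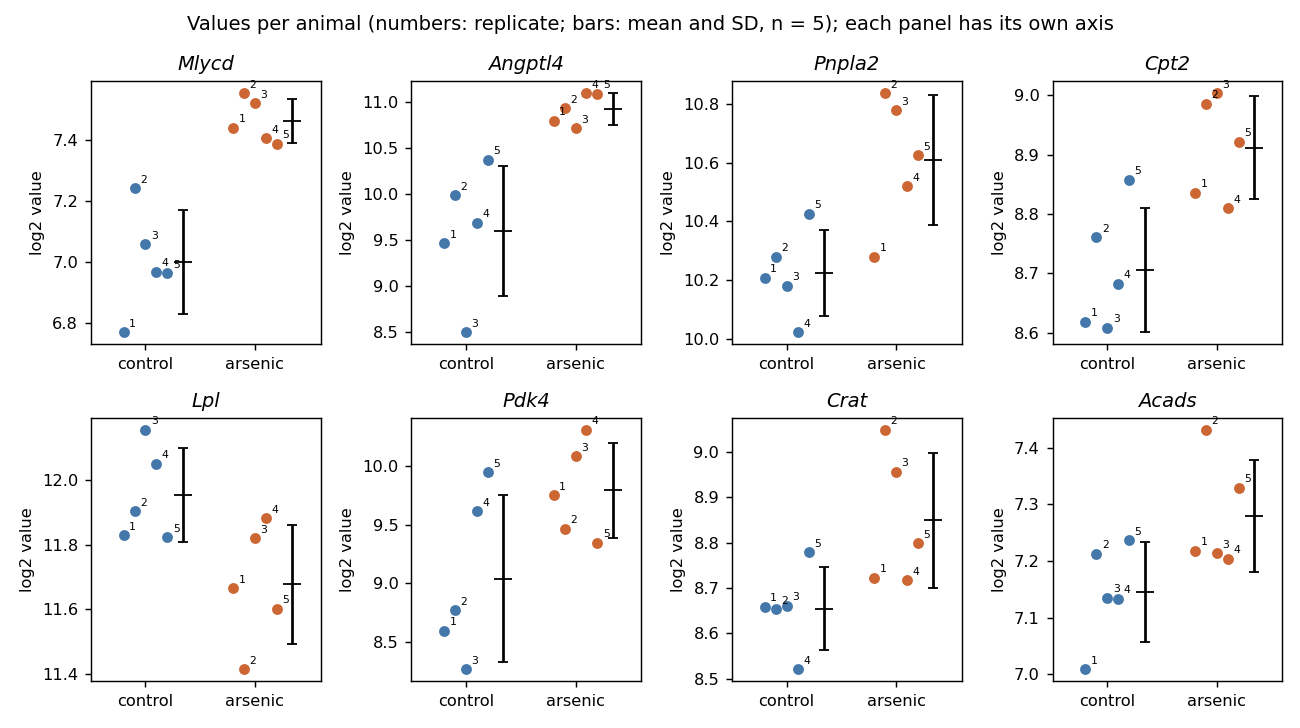
Log2 value of each animal (points, numbered by replicate) for the 8 members with the smallest p, with the mean and SD of each group of 5 as bars and a separate y axis in each panel. Only in Mlycd and Angptl4 do all arsenic points lie above all control points, and Lpl is the only panel with a lower arsenic mean.

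Mlycd lies within the group that carries fatty acids into the mitochondrion and controls that step. It encodes malonyl-CoA decarboxylase, which removes malonyl-CoA, the inhibitor of carnitine palmitoyltransferase 1. Its control values were 6.77, 7.24, 7.06, 6.97 and 6.96 in replicates 1 to 5, against 7.44, 7.56, 7.52, 7.41 and 7.39 with arsenic. The lowest arsenic animal was above the highest control, and the arsenic animals were close to each other. The means of 7.001 ± 0.17 and 7.46 ± 0.07 (SD, n = 5 each) differed by 0.46 (SE 0.09), or 1.38-fold. Its limma adjusted p of 0.0635 became 0.0424 without control replicate 2 and 0.0436 with array weights, and it ran up to 0.169 over 20 alternative settings.

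The shuttle enzymes themselves differed less. Cpt2, the inner-membrane carnitine palmitoyltransferase, was at 8.62, 8.76, 8.61, 8.68 and 8.86 in control replicates 1 to 5 and at 8.84, 8.99, 9.004, 8.81 and 8.92 with arsenic. Control replicate 5 overlapped with 2 arsenic animals, and the difference of 0.21 (SE 0.08, limma adjusted p = 0.251) did not pass. Crat, the carnitine acetyltransferase that buffers short acyl groups, had control values of 8.66, 8.65, 8.66, 8.52 and 8.78, and arsenic values of 8.72, 9.05, 8.96, 8.72 and 8.80. Replicates 2 and 3 of the arsenic group were the highest, and the difference was 0.19 (SE 0.09, limma adjusted p = 0.310). Cpt1a, the outer-membrane enzyme that malonyl-CoA inhibits, had -0.05 (SE 0.14), and 2 further probe sets of it had -0.06 and -0.04. The carrier of acylcarnitines, Slc25a20, had 0.10 (SE 0.15).

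Among the 5 measured genes of fatty acid supply and storage, 2 had a positive and 3 a negative difference, and none passed. Pnpla2 encodes the lipase that starts the breakdown of triglyceride in lipid droplets. It was at 10.21, 10.28, 10.18, 10.02 and 10.43 in control replicates 1 to 5 and at 10.28, 10.84, 10.78, 10.52 and 10.62 with arsenic. All arsenic animals but replicate 1 lay above all controls, and the difference was 0.38 (SE 0.12, limma adjusted p = 0.193). Lpl, the lipoprotein lipase that Angptl4 inhibits, had control values of 11.83, 11.90, 12.16, 12.05 and 11.82, and arsenic values of 11.67, 11.41, 11.82, 11.88 and 11.60. Its groups overlapped, and its difference of -0.28 (SE 0.11, limma adjusted p = 0.264) was the lowest of all members; a second probe set had -0.09.

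Plin2, which coats lipid droplets, averaged 11.69 ± 0.35 in controls and 11.87 ± 0.18 with arsenic. The fatty acid translocase Cd36 averaged 13.50 ± 0.41 and 13.47 ± 0.23 (other probe sets differed by -0.18 and -0.09), and the muscle-type fatty acid binding protein Fabp3 8.31 ± 0.63 and 8.26 ± 0.51. For Fabp3 the highest animals were control replicate 4, at 9.13, and arsenic replicate 3, at 9.05. The mean level of heart muscle markers was also highest in these 2 animals, at 9.58 and 9.78, and lowest in control replicate 2 and arsenic replicate 5, at 7.17 and 6.61, where Fabp3 was at 7.46 and 7.75. The part of heart tissue in the spread of Fabp3 was not tested. White adipocyte markers were highest in the same 2 animals, at 9.06 and 9.74. The signs of Cd36 and Fabp3 turned when arrays were centred on their median, at 0.03 and 0.02.

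The 15 mitochondrial enzymes that oxidise the acyl chain had differences between -0.08 and 0.26 with a median of 0.04, 10 of them positive. Over all genes the median was 0.057 with 63.2% positive. The 95% intervals of the 15 enzymes lay between -0.38 and 0.60, and 14 of the 15 lay wholly between -0.5 and 0.5. Acads, the short-chain acyl-CoA dehydrogenase, was at 7.01, 7.21, 7.14, 7.13 and 7.24 in control replicates 1 to 5 and at 7.22, 7.43, 7.21, 7.20 and 7.33 with arsenic. Arsenic replicates 2 and 5 lay above all controls and the others within their range, and the difference was 0.13 (SE 0.08, limma adjusted p = 0.404). Acadm, for medium chains, had the largest difference of the 15, 0.26 (SE 0.15, limma adjusted p = 0.413), from 10.88 ± 0.33 to 11.14 ± 0.16. Acadl and Acadvl, for long and very long chains, had -0.02 (SE 0.10) and 0.08 (SE 0.08).

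Electrons from these dehydrogenases pass through the flavoprotein made of Etfa and Etfb and its oxidoreductase Etfdh, which had 0.03 (SE 0.14), -0.02 (SE 0.09) and 0.04 (SE 0.10). The subunits of the trifunctional protein of long chains, Hadha and Hadhb, had -0.04 (SE 0.08) and 0.11 (SE 0.09), with 0.05 and 0.06 from other probe sets of Hadhb. Hadh, the dehydrogenase of shorter hydroxyacyl chains, was at 13.25 ± 0.13 in controls and at 13.23 ± 0.04 with arsenic (SD, n = 5 each). Its other probe sets had -0.15 and 0.08. Echs1, the short-chain hydratase, had 0.16 (SE 0.10), and the thiolase Acaa2 had -0.08 (SE 0.13), with -0.10 and -0.14 from its other probe sets. The isomerases Eci1 and Eci2, which move double bonds of unsaturated chains, had 0.12 (SE 0.10) and 0.01 (SE 0.14), and the reductase Decr1 had 0.14 (SE 0.13), with -0.07 from a second probe set. Centring arrays on their median turned the sign of Acadl (0.05), Etfb (0.04), Hadha (0.02) and Hadh (0.04), and quantile normalization that of Eci2 (-0.0010).

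Peroxisomes shorten chains that mitochondria take poorly. Ehhadh, their bifunctional enzyme and a classical PPAR alpha target of liver, averaged 8.25 ± 0.28 in controls and 8.53 ± 0.32 with arsenic, a difference of 0.28 (SE 0.17, limma adjusted p = 0.435). Hsd17b4, the other bifunctional enzyme, had 0.12 (SE 0.09), with 0.0088 from a second probe set, and the thiolase Acaa1a 0.03 (SE 0.15). A pair of probe sets shared by Acaa1a and its near-identical copy Acaa1b had -0.05 and -0.07. The single-symbol probe set was dimmer, at 7.09 in controls against 10.70 and 11.42, and may not stand for the gene alone.

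The thioesterases Acot1 and Acot2 release free fatty acid from acyl-CoA in the cytosol and the mitochondrion, and their sequences are near copies. Acot1 was at 11.68, 12.55, 11.24, 12.26 and 12.74 in control replicates 1 to 5 and at 12.55, 12.29, 12.25, 12.33 and 11.89 with arsenic. Both the lowest and the highest value were control animals, replicates 3 and 5, and all arsenic animals lay between them. The difference was 0.17 (SE 0.26), that of Acot2 0.19 (SE 0.19), and that of a probe set shared by both 0.14, so the genes cannot be told apart there. Leaving out control replicate 3 gave Acot1 a difference of -0.04, and leaving out control replicate 5 gave 0.33. For Acot2 the same fits gave 0.07 and 0.32, and the fit without control replicate 1 gave 0.09.

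The same 2 control animals marked the ends of the control range for many members. Control replicate 3 was the lowest control for 20 of 33 members (60.6%), against 21.4% of all genes, and control replicate 5 the highest control for 20 of 33 (60.6%), against 26.5%. The median deviation of the members from the control mean was -0.14, 0.055, -0.19, 0.054 and 0.15 in control replicates 1 to 5. It was between 0.059 and 0.13 in the 5 arsenic animals. Over all genes it was -0.02, 0.03, -0.02, -0.02 and 0.04 in control replicates 1 to 5 and between 0.00095 and 0.13 with arsenic. The map of every gene in every animal shows control replicate 3 low in many rows, among them Angptl4 and Acot1. It was the highest control for Lpl, at 12.16, and lay above the control mean for Cd36 and Mlycd.

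**Figure D3:**
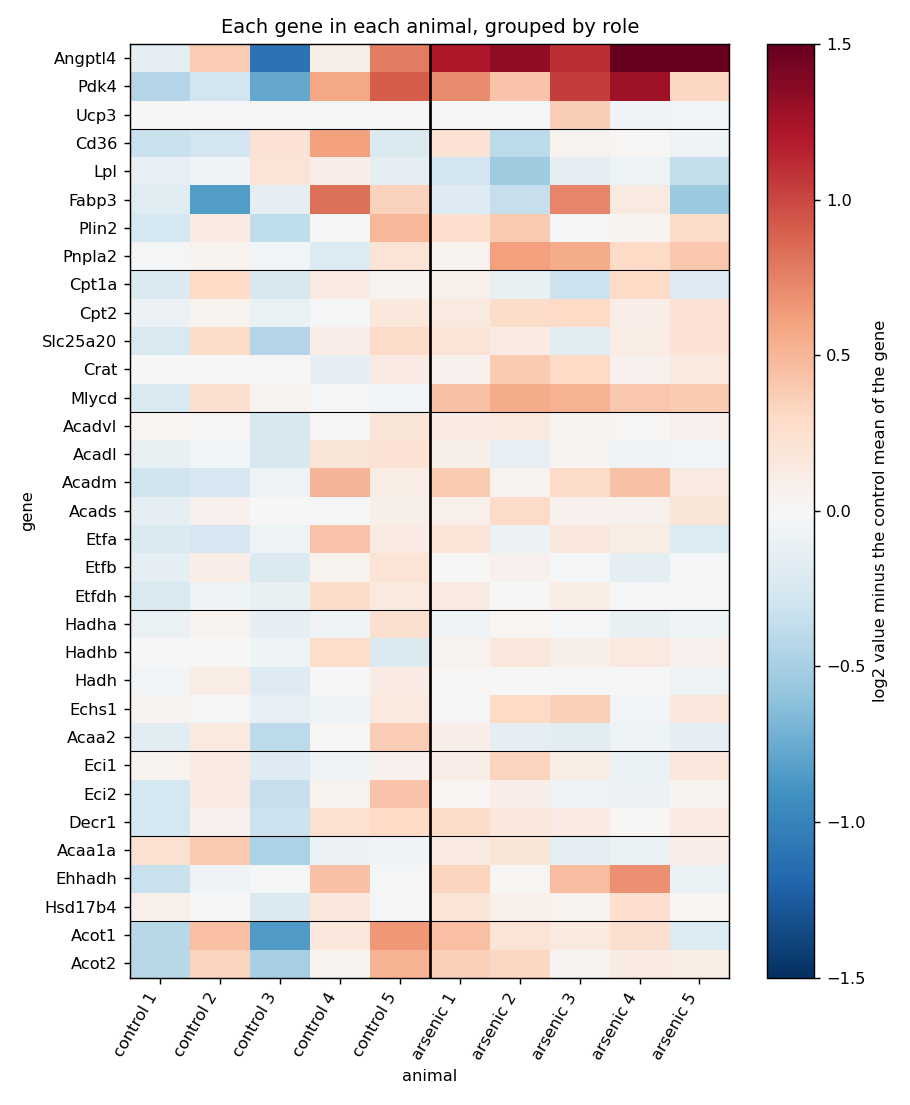
Log2 value minus the control mean of the gene (colour) for the 33 members (rows, in role groups separated by lines) in the 10 animals (columns). Control replicate 3 is the lowest control in 20 rows and control replicate 5 the highest in 20, and the row of Angptl4 is red in all 5 arsenic animals.

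The spread between animals was larger in controls for 24 of the 33 members (72.7%), as it was for 49.5% of all genes tested. The median SD of the members was 0.20 in controls and 0.15 with arsenic, against 0.18 in both groups over all genes. For Angptl4 the SD was 0.71 in controls and 0.17 with arsenic, for Acot1 0.62 and 0.24, for Acot2 0.45 and 0.14, for Eci2 0.31 and 0.08 and for Hadh 0.13 and 0.04. Members with more spread with arsenic included Ucp3, through a single animal, Pnpla2 at 0.15 and 0.22 and Echs1 at 0.10 and 0.18. These are descriptions of 10 animals, and the difference in spread was not tested. The plot of the SDs of both groups places most members above the line of equal spread.

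**Figure D4:**
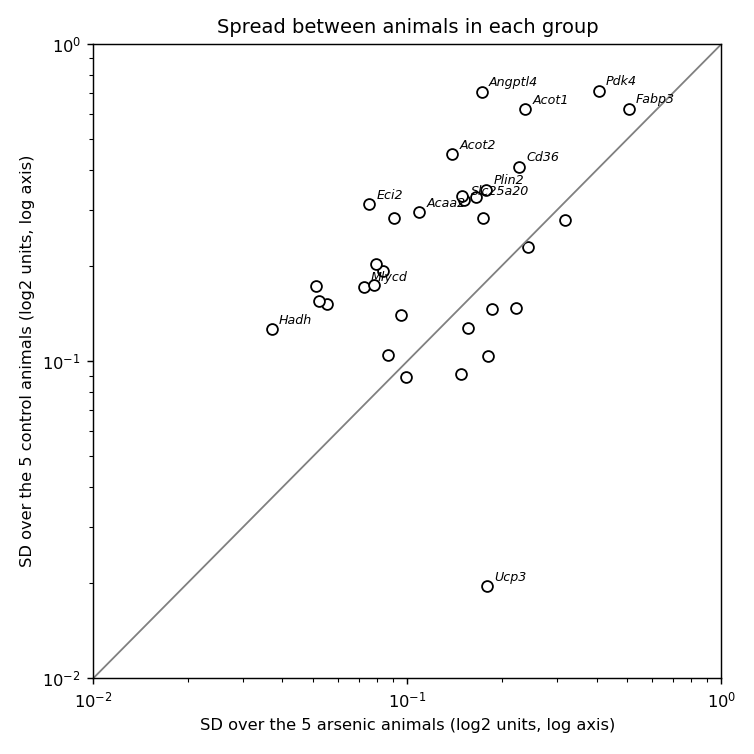
SD of the log2 values over the 5 control animals (y axis) against that over the 5 arsenic animals (x axis), both on log axes, for the 33 members, with the line of equal spread. For 24 of the 33 members the point lies above the line.

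Outside the members, 133 genes of the pathway were listed in 6 groups, of which 105 were measured, 16 lay below the filter and 12 were not analysed here. Of the 105, 1 rose, none fell by the same test, and 78 had a positive difference, with a median of 0.11, where 0.476% of all genes passed and 63.2% were positive with a median of 0.057. At an unadjusted limma p of 0.05, 20 of the 105 were higher and 4 lower, against 10.6% and 5.13% of all genes. Every arsenic value lay above every control for 8 of the 105 and below for 1, against 320 and 91 of all 11333 genes. The 8 were Klf15, Txnip, Ivd, Acad8, Dlat, Acaca, Lpin2 and Lpin1, and the lower gene was G0s2. The gene that rose was Klf15, a zinc-finger factor of fasting metabolism that glucocorticoids induce. It averaged 10.30 ± 0.20 in controls and 11.29 ± 0.12 with arsenic (SD, n = 5 each), a difference of 0.99 (SE 0.10, limma adjusted p = 0.00629). Its adjusted p was 0.0633 with the level of kidney transcripts as a covariate and 0.0640 with a replicate block.

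The receptors themselves did not pass. Ppara, the fatty acid sensor of oxidative tissues, had 0.24 (SE 0.13), Ppard 0.28 (SE 0.16) and Pparg 0.39 (SE 0.14, limma adjusted p = 0.252). Of the 14 measured receptors and coregulators 9 had a positive difference, where 63.2% of all genes did (73.9% after median centring). Their coactivators Ppargc1a and Ppargc1b, which drive mitochondrial genes, had -0.36 (SE 0.20) and -0.48 (SE 0.17) at dim levels of 4.74 and 5.34 in controls, and the deacetylase Sirt1 had -0.39 (SE 0.17). Another probe set of Ppargc1a had 0.07. Pparg also stands on the list of alveolar macrophage markers, 12 of whose 14 genes had a positive difference with none past the threshold. Over all genes 63.2% were positive and 0.476% passed. That list averaged 9.24 to 9.65 in controls and 9.40 to 9.87 with arsenic, and its part in the difference of Pparg was not tested.

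Of 18 other measured PPAR targets none passed and 13 had a positive difference. Over all genes tested, 0.476% passed and 63.2% were positive. Txnip, a regulator of glucose uptake and redox state, had 0.40 (SE 0.08, limma adjusted p = 0.0855). Every arsenic animal lay above every control, as for 2.82% of all genes. Txnip passed with array weights (limma adjusted p = 0.0439) and with a trended, robust variance model (limma adjusted p = 0.0278). Pex11a, which divides peroxisomes, had 0.28 (SE 0.13), and the lysosomal factor Tfeb 0.10. Of 33 other oxidation enzymes none passed and 23 had a positive difference, beside the same shares of all genes. Amacr, a racemase of branched chains, had 0.29 (SE 0.09), the isovaleryl-CoA dehydrogenase Ivd 0.28 (SE 0.09), the carnitine importer Slc22a5 0.32 (SE 0.10) and Acad9 0.26 (SE 0.09). Acsl4, an acyl-CoA synthetase of arachidonic acid, was singled out after its values were seen: it had -0.48 (SE 0.17, limma adjusted p = 0.242), and no other gene of these 33 was lower at an unadjusted p of 0.05.

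Of 10 genes of pyruvate entry, the step that Pdk4 controls, none passed and 7 had a positive difference. Among all genes 0.476% passed and 63.2% were positive. The other kinases Pdk1, Pdk2 and Pdk3 had 0.06, 0.28 and 0.29, the phosphatase Pdp1 had -0.51 (SE 0.24), or -0.27 over the mean of its probe sets, and the complex subunits Dlat and Pdhx had 0.24 and 0.17. Another probe set of Pdk1 had -0.16. Of 13 genes of fatty acid synthesis none passed and 10 had a positive difference. The carboxylases Acaca and Acacb, which make malonyl-CoA, had 0.19 (SE 0.07) and 0.16 (SE 0.08), the elongase Elovl1 had -0.22 and the desaturase Scd2 0.12. Another probe set of Acaca had -0.23.

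Genes of lipolysis, droplets and uptake had the highest median of the 6 groups, 0.24, with 20 of 22 positive and none past the threshold. All genes had a median of 0.057 with 63.2% positive, and 0.12 with 73.9% after median centring. Lpin2 and Lpin1, phosphatases on the way to triglyceride, had 0.38 (SE 0.08, limma adjusted p = 0.0855) and 0.26 (SE 0.09). Their groups did not overlap, with arsenic higher, as held for 2.82% of all genes. Another probe set of Lpin2 had -0.28. Lpin3 had 0.27 (SE 0.11). G0s2, which encodes the inhibitor of the Pnpla2 lipase, averaged 10.05 ± 0.21 in controls and 9.49 ± 0.18 with arsenic. Every arsenic value lay below every control value, which held for 91 of all 11333 genes. The difference of G0s2 was -0.56 (SE 0.12, limma adjusted p = 0.0888). With array weights Lpin2 and G0s2 passed (limma adjusted p = 0.0459 and 0.0406). The largest difference of the group was that of Slc27a2, singled out after its values were seen, at 1.82 (SE 0.91, limma adjusted p = 0.357). Its groups overlapped. It was lowest in control replicate 1 (3.90) and highest in arsenic replicate 4 (10.56), as was the level of kidney transcripts (5.48 and 8.91). The part of kidney tissue in its difference was not tested.

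Kidney, a tissue that oxidises much fatty acid, was included among the marker lists, and the mean level of its markers was higher with arsenic. Of the 26 kidney markers listed, 10 passed the filter and 15 lay below it. Among those below it, means in controls and with arsenic were 2.81 and 3.51 for Slc12a1 and 3.68 and 4.53 for Cubn. Those of Aqp2 were 2.54 and 2.56 and those of Nphs1 2.29 and 2.24. All 10 past the filter had a positive difference, where 63.2% of all genes did, and none passed the test. The mean level of these 10 ran from 5.48 to 7.97 in controls and from 7.14 to 8.91 with arsenic. Umod, a defining transcript of the loop of Henle, averaged 6.46 ± 2.04 and 8.72 ± 1.19, and Kap, of the proximal tubule, 8.82 ± 3.83 and 11.60 ± 1.12. Control replicate 4 and arsenic replicate 4 had the highest kidney level, at 7.97 and 8.91. Cyp2e1, also counted in this level, was instead highest in arsenic replicate 3 (11.33) and control replicate 4 (10.34). The fat marker Fabp4 was highest in the same animals (12.93 and 12.14). The part of fat tissue in the kidney level was not tested.

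The kidney level averaged 6.77 in controls and 7.84 with arsenic. A fit with it as a covariate therefore cannot fully separate it from the exposure. The part of kidney tissue in the differences of the members was not tested. Ehhadh, fitted with this kidney level as a covariate, had a difference of -0.09 in place of 0.28, Acadm had -0.01 in place of 0.26 and Pdk4 0.38 in place of 0.75. Etfa and Etfdh had -0.18 and -0.07. Differences near 0 also moved in this fit: Cd36 had -0.35, Fabp3 -0.42, Cpt1a -0.22 and Acaa1a 0.20. Eci1 and Echs1 had 0.24 and 0.26, Hadhb 0.02, Acot1 0.05, Decr1 0.08 and Hsd17b4 0.07. Among the regulators, Ppard had 0.55, Pparg 0.59, Ppara 0.13 and Ppargc1a -0.70. None of these passed, and in this fit 0 of all 11333 genes did, against 54 without the covariate. The differences of Angptl4 (1.37), Mlycd (0.41), Pnpla2 (0.47), Cpt2 (0.23) and Crat (0.27) kept their sign and none of them passed (limma adjusted p between 0.124 and 0.193). Lpl had -0.43 (limma adjusted p = 0.122). The median of the members was 0.06 and that of all genes 0.09 in this fit. Without the covariate, heart markers had 1 positive difference among 11 and white adipocyte markers 3 among 6, where 63.2% of all genes were positive. The levels of both lists overlapped between the groups. The plot of marker levels sets the kidney genes beside the heart, fat and macrophage genes.

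**Figure D5:**
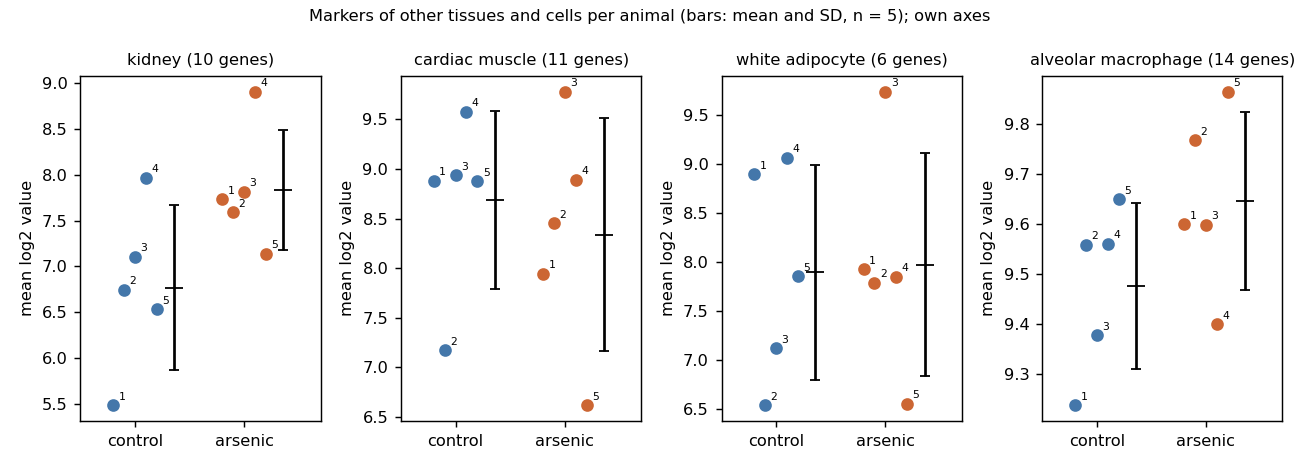
Mean log2 value of the measured markers of kidney, cardiac muscle, white adipocytes and alveolar macrophages in each animal (points, numbered by replicate), with the mean and SD of each group of 5 and a separate y axis in each panel. The kidney level ran from 5.48 to 7.97 in controls and from 7.14 to 8.91 with arsenic, whereas the cardiac level was highest in control replicate 4 and arsenic replicate 3.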

How the data were processed

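The authors deposited a table of log2 values for 45101 probe sets and 10 arrays. Per the submitters' processing notes it was made with GCRMA, whose version is not given. GCRMA draws dim probe sets towards a floor, which makes differences of dim genes too small. Detection calls and scan dates were not used here.

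Gene names came from the platform annotation, in which 34958 had 1 symbol, 932 several and 9211 were not listed. A probe set was kept if it exceeded the median of the table, 4.20, on at least 5 arrays. The brightest kept probe set by mean stood for a gene, which left 11333 genes. The 2 groups were fitted without covariates in limma 3.58.1 (lmFit, eBayes; R 4.3.3). P-values were adjusted over all 11333 genes by the Benjamini-Hochberg method, with 0.05 as the threshold. The fit was tested on simulated data, drawn independently for each gene with the same SD in both groups. That test does not cover shifts shared by many genes or unequal spread between the groups.

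Array medians ran from 4.11 to 4.26, and the correlation between arrays from 0.990 to 0.997. Precision is limited by the number of arrays. The labels give each animal its own number, so replicates are separate animals. The members, the gene lists and the alternatives were chosen with earlier results of these data known. All members are accounted for; every animal is given for the 8 members with the smallest p and for Acot1, which was chosen after its values were seen. From the other lists, genes past the threshold, up to 4 with the smallest p and a few set genes (the PPARs, Ppargc1a, Klf15, Txnip, Pdk1 and Pdk2 among them) are named. Brown fat, skeletal muscle, liver and endothelial markers, also listed, had no gene past the threshold. The settings varied were the filter, the probe set chosen, quantile normalization, centring on the median, a trended and robust variance model, array weights, a replicate block, the kidney level as a covariate and leaving out animals. Figures were drawn with matplotlib 3.10.9.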

Additional observations from a re-analysis of the deposited data

Results flagged for a closer look

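A check for animals far from the others of their group was run on each of the 33 members in both groups, 66 groups in all, of which chance would pick out about 3.3. It picked out 2, both arsenic replicate 3. For Ucp3 this animal was at 4.94 and the next at 4.56, a gap of 0.906 of the range of the group, at levels close to the filter value. For Slc25a20 it was at 10.86 and the next at 11.13, a gap of 0.725 of the range.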

How the results depend on the processing

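Each result was recomputed under 21 alternatives. Of the 33 members, 16 kept the sign of their difference in every setting that measured them, and 17 changed it in at least 1. With no filter 19 genes passed over the whole series in place of 54, with a replicate block 5 (and 0 other pathway genes in place of 1), with the kidney covariate 0 by limma (2705 at an unadjusted p of 0.05; 0 other pathway genes), with arsenic animal 4 and control animal 2 both left out 11, and without single animals 9 to 41. The replicate numbers do not pair the animals (correlations of same-numbered deviations from -0.33 to 0.25, and 0 of 5 numbers matched best with themselves), and the block changed no call of a member. Members past the threshold numbered 0 to 1 without single animals and 1 with array weights. In each case this was Mlycd, at 0.51 with array weights and from 0.40 to 0.52 without single animals. Other pathway genes past the threshold numbered 3 with the trended, robust model and 4 with array weights.

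Signs turned as follows, on the log2 scale. With arrays centred on their median: Cd36 0.027, Fabp3 0.018, Cpt1a 0.013, Acadl 0.046, Etfb 0.042, Hadha 0.020 and Hadh 0.042. With array weights: Cd36 0.11, Fabp3 0.11, Cpt1a 0.035, Acadl 0.056, Etfb 0.027, Hadh 0.0062, Acaa2 0.0045 and Acaa1a -0.011. With the kidney covariate: Acadm -0.011, Etfa -0.18, Etfdh -0.070 and Ehhadh -0.090. With 2 animals left out: Etfa -0.048, Etfb 0.035 and Hadh 0.0017. With the probe set of largest variance: Hadh 0.075, Ppargc1a 0.073, Pdk1 -0.16, Acaca -0.23 and Lpin2 -0.28. With the mean of probe sets Acaca had -0.016, and with quantile normalization Eci2 -0.0010. Without single animals the ranges that crossed 0 were -0.034 to 0.072 (Ucp3), -0.12 to 0.12 (Cd36), -0.26 to 0.16 (Fabp3), -0.14 to 0.024 (Cpt1a), -0.0075 to 0.17 (Slc25a20), -0.076 to 0.036 (Acadl), -0.029 to 0.14 (Etfa), -0.076 to 0.029 (Etfb), -0.017 to 0.11 (Etfdh), -0.078 to 0.018 (Hadha), -0.069 to 0.0093 (Hadh), -0.18 to 0.013 (Acaa2), -0.078 to 0.12 (Eci2), -0.086 to 0.13 (Acaa1a), -0.044 to 0.33 (Acot1) and -0.023 to 0.13 (Pdk1). The causes were not tested. Dim genes such as Ucp3 and Ppargc1a lie near the floor of GCRMA, which limits what their differences can show.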
